A study of Mus musculus with 6 samples.

Results

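The replating step of neural differentiation was described in P19 cells that carry an empty pCDNA vector, by setting the RNA of differentiated cells against the RNA of aggregated cells of the same line. P19 is a mouse embryonal carcinoma line, and its cells turn into neurons and other cell types when they are grown as floating aggregates with retinoic acid and then plated again. The differentiated cells had spent 4 days as aggregates in medium with 5e-07 M all-trans retinoic acid and 2 further days plated on a surface, and the aggregated cells were taken at the end of the 4 days. These are 2 of the 6 samples of the series, 1 array each, and both arrays lie on the same slide. The other samples are undifferentiated vector cells, which had not been aggregated, and the same 3 states of a P19 line carrying AICD, the piece of the amyloid precursor protein that gamma-secretase frees into the cell. The undifferentiated vector array and the differentiated and aggregated AICD arrays are set beside the vector step where stated. All cells grew in medium with serum. Whether a line is 1 clone or a pool, whether the plating medium held retinoic acid, and which of 2 plating surfaces (plain culture dishes or disks coated with poly-L-lysine) gave the RNA are not given in the sources used here.

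Retinoic acid enters the nucleus, binds the receptors RAR and RXR on response elements in DNA and turns on genes that include enzymes of its own breakdown, the beta form of its receptor and Hox genes. In P19 aggregates it steers cells away from the pluripotent state toward neural progenitors with a hindbrain or spinal cord identity. Plating then lets cells spread, leave the cell cycle and grow neurites, and P19 cultures are also known to hold fibroblast-like and glial cells beside neurons.

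Total RNA was copied into Cy3-labelled cRNA and hybridized to Agilent single-colour arrays. The value of a gene is its normalized log2 signal, the log2 of the processed spot brightness minus that of the array's 75th percentile, so that 0 marks the 75th percentile. Of 17178 genes with a probe, 13021 passed the scanner software's background flag on 1 or both arrays and were kept: 12212 on both, 461 on the differentiated array only and 348 on the aggregated array only. For a gene detected on 1 array only, the fold is a bound. It is set by the faintest signal called above background on the other array or by the gene's own dim signal there, whichever is higher. Where the dim signal is the higher, the bound equals the measured difference. There were no replicates, so every difference below is a size without a test, and the number of arrays limits the precision. The 75th percentile of the signal was 878 on the differentiated and 787 on the aggregated array, 65.9% and 64.3% of spots were well above background, and 0 spots were saturated. From replicate spots of the same probe, a difference between the arrays had an SD of 0.105 on the log2 scale, which leaves out the spread between cultures and labellings. In the 4368 genes with several probes on both arrays, the median SD of the difference among probes of a gene was 0.176.

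Between differentiated and aggregated vector cells, 1553 of the 13021 genes (11.9%) were higher by 2-fold or more and 1497 (11.5%) lower by as much, 23.4% in all. The counts of each gene list below are to be read beside these shares. A list median given without further words takes measured differences, including those against a dim signal not well above background. At least 10-fold higher were 136 genes (1.04%), and 55 (0.422%) were at least 10-fold lower. The median difference over all genes was -0.10 on the log2 scale, or -0.09 with the genes at their bound. When the arrays were scaled to their medians instead of their 75th percentiles, the median difference was -0.26, and 39.4% of the genes at least 2-fold apart were higher, against 50.9% with the 75th percentile. Fewer cells of a type and less RNA per cell cannot be told apart in these bulk samples. Marker genes showed which cell types the arrays covered. A summed level (1 is the 75th percentile) adds only the markers above background on that array. All 10 neuron markers were above background on both arrays, with a summed level of 201 in differentiated and 56.6 in aggregated cells. The 7 neural progenitor markers summed to 131 and 126. The 9 markers of mesenchyme and fibroblasts summed to 32.2 in differentiated and 7.08 in aggregated cells, and the 4 of smooth muscle to 10.6 and 12.6. Of the 5 markers of embryonal carcinoma cells, the cell type given in the labels, Nanog and Zfp42 were not well above background on either array, and the sum was 0.74 in differentiated and 0.337 in aggregated cells. The astrocyte markers Gfap and Aqp4, the oligodendrocyte marker Sox10, the endothelial markers Pecam1, Cdh5 and Tek, the macrophage markers Ptprc and Cd68 and the endoderm markers Afp and Ttr were also not well above background on either array. Of 5 astrocyte markers, 3 were above background on each array, summing to 1.53 in differentiated and 2.92 in aggregated cells. Of 5 oligodendrocyte lineage markers, 3 were above background in differentiated and 4 in aggregated cells. They summed to 8.44 in differentiated and 5.92 in aggregated cells. The sums in differentiated and aggregated cells were 0.0586 and 0.112 for endothelium, 0.36 and 0.104 for macrophages and 0.0741 and 0.0886 for endoderm. The part that a shift in cell types has in the differences below was not tested.

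**Figure D1:**
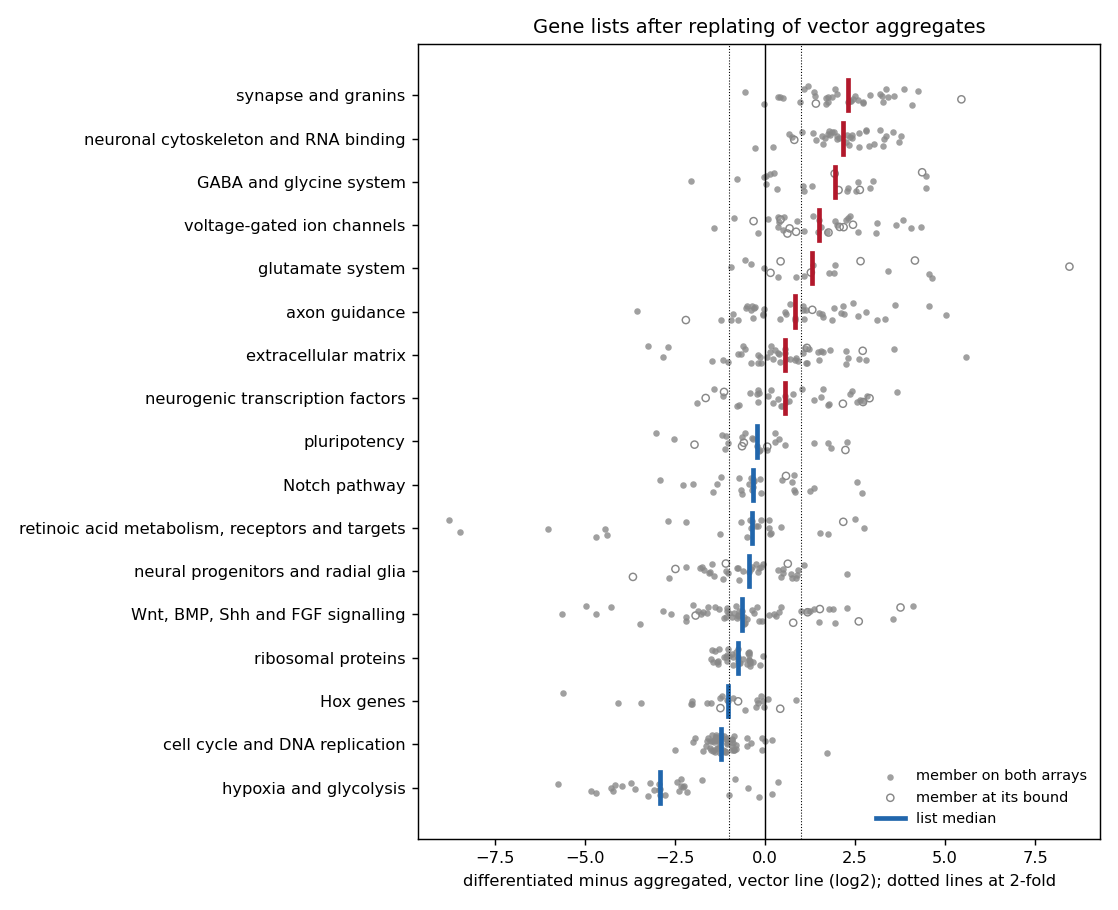
Each row is a list of genes of 1 function, and each point is a member's difference between the differentiated and the aggregated vector array on the log2 scale (open points are members detected on 1 array only, at their bound), with the list's median with bounds as a bar. The synapse list has a median of 2.29 and the list of hypoxia and glycolysis one of -2.93, and the retinoic acid list spans -8.77 to 2.74.

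Of the 12 largest measured differences on the lower side, 4 were those of genes that break down or answer to retinoic acid (Cyp26b1, Dhrs3, Cyp26a1 and the Hox gene Hoxd1). Cyp26a1, an enzyme that degrades retinoic acid, and Rarb, its receptor beta, carry in their promoters the paired half-sites known as a DR5 retinoic acid response element. Both promoters are shown because the 2 genes stood high in the aggregates and low after replating. The windows run from 250 bases before to 50 bases after the transcription start in RefSeq (GRCm38.p6), 5′ to 3′ on the gene's strand, with the match in capitals: chr19:37697558-37697857, plus strand, for Cyp26a1, and chr14:16575427-16575726, minus strand, for Rarb.
Cyp26a1: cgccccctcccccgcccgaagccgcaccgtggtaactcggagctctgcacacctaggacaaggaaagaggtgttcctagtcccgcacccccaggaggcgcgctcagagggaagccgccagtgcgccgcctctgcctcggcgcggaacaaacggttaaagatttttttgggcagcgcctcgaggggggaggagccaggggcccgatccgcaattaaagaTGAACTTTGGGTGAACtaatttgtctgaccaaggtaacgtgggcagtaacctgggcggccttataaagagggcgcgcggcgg
Rarb: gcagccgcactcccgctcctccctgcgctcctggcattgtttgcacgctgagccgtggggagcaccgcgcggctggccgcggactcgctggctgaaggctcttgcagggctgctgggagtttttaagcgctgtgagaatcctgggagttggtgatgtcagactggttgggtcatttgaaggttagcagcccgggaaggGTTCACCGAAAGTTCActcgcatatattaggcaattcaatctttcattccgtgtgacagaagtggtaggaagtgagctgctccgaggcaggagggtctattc
The letters searched were GTTCA and AGTTCA with 5 bases of any kind between them, on both strands, and 11 of 32851 promoter windows of all genes (0.0335%) held them. In Cyp26a1 the match starts at position -32 (counted from the transcription start) and reads on the reverse strand, and in Rarb it starts at -52 on the gene's own strand. Of the 11 genes, 5 were among the genes kept, and the other 3 of these had differences of -1.06 (Blvrb), 0.03 (Lcorl) and 0.11 (Tnfsf13b). A match describes these letters only, and binding was not measured.

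Cyp26b1, another hydroxylase that clears retinoic acid, had a normalized log2 signal of -5.27 in differentiated cells and 3.50 in aggregated cells, 436-fold lower and the largest difference of all genes on both arrays. Dhrs3, which turns retinaldehyde back into retinol, had a log2 signal of -3.47 in differentiated and 5.02 in aggregated cells, 358-fold lower. For Cyp26a1 the values were log2 signals of -3.94 in differentiated and 2.10 in aggregated cells, 65.7-fold lower. All 3 enzymes were above the array's 75th percentile in aggregates and far below it after replating. Rarb had a log2 signal of -1.26 in differentiated and 3.13 in aggregated cells (a log2 difference of -4.40), and Rara, the receptor alpha, -3.59 in differentiated and -2.35 in aggregated cells (-1.24). Crabp2, which carries retinoic acid inside cells, had a log2 signal of -2.05 in differentiated and 0.65 in aggregated cells (a log2 difference of -2.71). Bhlhe40, a transcriptional repressor known to be induced by retinoic acid in P19 cells, had a log2 signal of -3.12 in differentiated and 1.58 in aggregated cells (a log2 difference of -4.70), and Rbp4, the retinol carrier of plasma, -2.20.

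Not every gene of the pathway was lower, and Aldh1a2 and Aldh1a3, which make retinoic acid, ran the other way. Aldh1a2, the main synthetic enzyme of the embryo, had a log2 signal of -0.54 in differentiated and -3.29 in aggregated cells, 6.7-fold higher. Aldh1a3 was detected after replating only, at least 4.51-fold higher. Rdh10, which makes the retinaldehyde these enzymes use, differed by 1.76 on the log2 scale, the receptor Rxrg by 2.49 and the binding protein Crabp1 by 1.52. For Rxrg the differentiated log2 signal of -1.25 lay below the 1.55 in undifferentiated cells. The level of Rxra differed by -0.49 on the log2 scale and that of Rxrb by -0.36. Of 32 genes listed for retinoic acid metabolism, receptors and targets, 27 were kept, 5 higher by 2-fold or more and 9 lower by as much, with a median of -0.36. The undifferentiated vector array gives the state before aggregation for the same genes: Cyp26b1 was not well above background there, Dhrs3 had a log2 signal of -1.24, Cyp26a1 -4.12, Rarb -3.25 and Crabp2 -3.02. For Dhrs3 the differentiated value lay below the undifferentiated one, and for Cyp26a1, Rarb and Crabp2 it lay between the undifferentiated and the aggregated value. The undifferentiated arrays are on another slide, so slide and state cannot be told apart in that comparison.

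**Figure D2:**
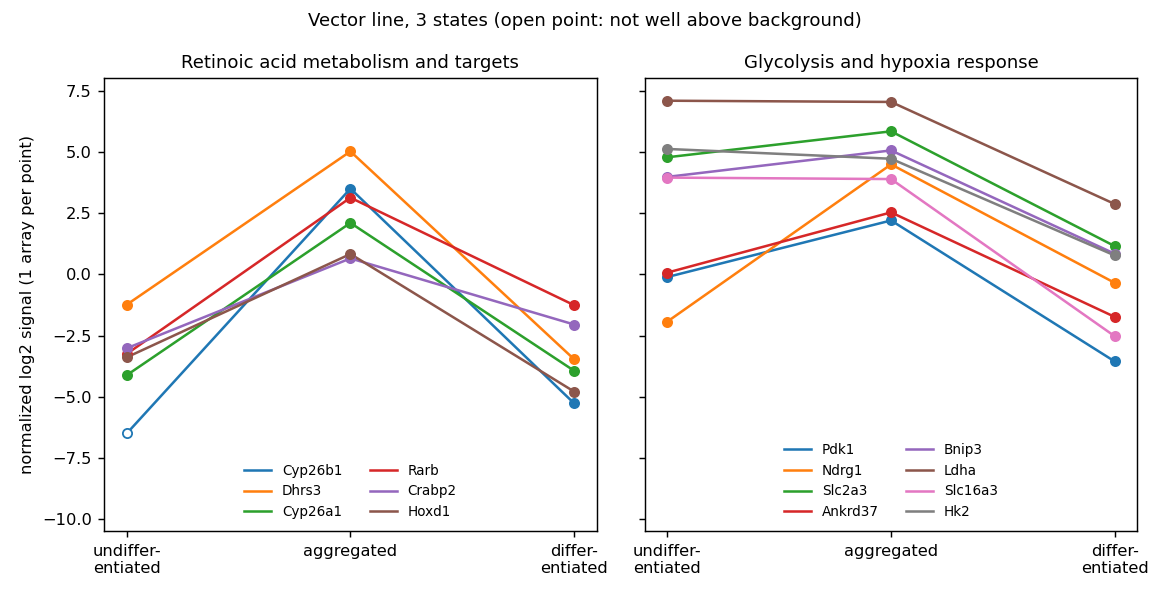
Lines join the normalized log2 signal of a gene on the undifferentiated, aggregated and differentiated vector arrays, 1 array per point, for 6 retinoic acid genes on the left and 8 genes of glycolysis and the hypoxia response on the right. The retinoic acid genes peak in the aggregates, while Ldha and Hk2 are about as high in undifferentiated as in aggregated cells and are lower on the differentiated array.

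Hox genes, which set position along the body axis and are turned on by retinoic acid from the front of each cluster, were lower or under 2-fold apart. Of 39 genes listed, 25 were kept, 13 lower by 2-fold or more and 0 higher by as much, with a median of -1.05 (-1.04 with bounds), which was -0.59 with normexp background correction and -0.40 with no filter on dim genes. Among the largest differences were those of Hoxd1 (a log2 signal of -4.79 in differentiated and 0.83 in aggregated cells, 49.0-fold lower) and Hoxc5 (-2.84 in differentiated and 1.25 in aggregated cells, 17-fold lower). Hoxd8 (a log2 difference of -2.07), Hoxd4 (-2.04), Hoxa9 (-2.04) and Hoxd3 (-1.61) followed, and Hoxb1 was detected in aggregates only, at least 2.36-fold lower. In the B cluster, Hoxb2 had a log2 difference of -1.04, Hoxb3 -1.05 (-0.48 on the other probe), Hoxb4 -1.21, Hoxb5 -0.19, Hoxb6 -0.55, Hoxb7 0.86, Hoxb8 -0.25 and Hoxb9 -0.12. Hoxb5 had a normalized log2 signal of -8.06 in undifferentiated, 4.79 in aggregated and 4.59 in differentiated cells.

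Glycolysis and the hypoxia response were lower almost throughout. Of 32 genes listed, 31 were kept, 25 were lower by 2-fold or more and 0 higher by as much, with a median of -2.93 beside -0.10 for all genes. Hypoxia-inducible factor binds a core of letters, ACGTG, in promoters of many of its targets. Shown with that core in capitals are 3 promoters of genes with differences past -4 on the log2 scale, Bnip3 and Ldha from the list and Slc16a3, which the list does not hold. They lie at chr11:120948817-120949116, plus strand (Slc16a3), chr7:138909457-138909756, minus strand (Bnip3), and chr7:46845554-46845853, plus strand (Ldha, 1 of its 2 windows), in the same RefSeq set and build as above.
Slc16a3: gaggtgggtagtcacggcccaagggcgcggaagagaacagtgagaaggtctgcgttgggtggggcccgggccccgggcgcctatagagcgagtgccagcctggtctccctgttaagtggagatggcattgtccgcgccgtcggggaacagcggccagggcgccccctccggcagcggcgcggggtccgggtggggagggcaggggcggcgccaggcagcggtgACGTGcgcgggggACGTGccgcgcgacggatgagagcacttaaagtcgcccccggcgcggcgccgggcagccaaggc
Bnip3: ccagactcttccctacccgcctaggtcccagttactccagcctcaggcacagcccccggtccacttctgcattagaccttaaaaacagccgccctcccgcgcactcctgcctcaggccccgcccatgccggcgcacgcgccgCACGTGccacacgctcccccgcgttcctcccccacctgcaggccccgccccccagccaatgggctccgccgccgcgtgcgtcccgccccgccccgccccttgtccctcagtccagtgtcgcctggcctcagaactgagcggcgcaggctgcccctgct
Ldha: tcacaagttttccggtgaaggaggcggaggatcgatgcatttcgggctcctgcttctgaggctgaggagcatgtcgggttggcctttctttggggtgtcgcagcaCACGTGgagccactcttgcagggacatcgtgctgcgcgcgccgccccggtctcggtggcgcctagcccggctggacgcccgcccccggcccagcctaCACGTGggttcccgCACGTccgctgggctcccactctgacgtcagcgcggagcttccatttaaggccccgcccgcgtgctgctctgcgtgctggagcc
Both strands were searched, so the run CACGTG counts once on each. In Slc16a3 the matches start at -27 and -14, in Bnip3 at -108 and -107, and in Ldha at -145, -144, -48, -47 and -34. The core stands in 6447 of the 32851 windows of all genes (19.6%), in 23 of 43 windows of the hypoxia and glycolysis list (53.5%), in 10 of 44 of the synapse list (22.7%), in 18 of 55 of the cell cycle list (32.7%), in 7 of 24 of the Hox list (29.2%) and in 7 of 35 of the retinoic acid list. The list names known targets of the factor, so its share is a description of the list and not evidence on binding in these cells.

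Slc16a3, the lactate exporter MCT4, had a normalized log2 signal of -2.53 in differentiated and 3.89 in aggregated cells, 85.2-fold lower. Pdk1, a kinase that inhibits pyruvate dehydrogenase, had a log2 signal of -3.56 in differentiated and 2.20 in aggregated cells, 54.2-fold lower. Ldha, the lactate dehydrogenase that ends glycolysis, had a log2 signal of 2.87 in differentiated and 7.04 in aggregated cells, 18.0-fold lower. Glucose transporters and at least 1 gene of each step down to pyruvate were lower. The glucose transporters Slc2a3 and Slc2a1 differed by -4.69 and -2.93 on the log2 scale, the hexokinase Hk2 by -3.96 and the phosphofructokinase Pfkl by -3.62. Of the later steps, Gpi1 had a log2 difference of -2.77, Aldoa -3.20, Tpi1 -3.08, Gapdh -2.27, Pgk1 -2.93, Pgam1 -2.24, Eno1 -3.71 and Pkm -2.16. The isoenzymes Hk1 (a log2 difference of 0.36), Pfkm (0.20) and Pfkp (-0.47) were under 2-fold apart. Gapdh and Pgk1 are often used to normalize expression data, and these arrays were not scaled to them.

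Among targets of hypoxia-inducible factor outside glycolysis, Ndrg1 had a log2 signal of -0.35 in differentiated and 4.49 in aggregated cells (28.7-fold lower), Ankrd37 -1.74 in differentiated and 2.53 in aggregated cells (19.3-fold lower), and Bnip3, a receptor for the removal of mitochondria, 0.84 in differentiated and 5.06 in aggregated cells (18.7-fold lower). Vegfa, the growth factor of vessels, differed by -2.40 on the log2 scale, the stress gene Ddit4 by -2.94, and the oxygen sensors Egln3 and Egln1 by -2.34 and -1.75. Car9, also a known target, had a log2 signal of -3.44 in differentiated and -3.26 in aggregated cells, a log2 difference of -0.18, and Adm differed by -0.83. The collagen-modifying enzymes P4ha1 (a log2 difference of -3.24), P4ha2 (-2.70) and Loxl2 (-2.84), which also answer to hypoxia, were the lowest of the matrix genes. Several of these genes were already high before aggregation: in undifferentiated cells Ldha had 7.09, Hk2 5.12 and Slc2a3 4.78. Ndrg1 was low there, with -1.93 in undifferentiated cells. Values for oxygen in the cultures or for the density of aggregates and plated cells were not used here.

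Genes of neuronal structure and of the synapse were higher in differentiated than in aggregated cells. Of 42 genes listed for the neuronal cytoskeleton and RNA binding, 38 were kept, 33 higher by 2-fold or more and 0 lower by as much, with a median of 2.16. Of 44 listed for the synapse and granins, 37 were kept, 31 higher by 2-fold or more and 0 lower by as much, with a median of 2.29. Mapt, which encodes the microtubule protein tau, had a normalized log2 signal of 4.85 in differentiated and 1.13 in aggregated cells, 13.2-fold higher. Dclk1, a microtubule-binding kinase of young neurons, had a log2 signal of 1.62 in differentiated and -2.14 in aggregated cells (13.6-fold higher), with 2.23 to 3.91 on the log2 scale over its 5 probes above background on both arrays. The stathmins Stmn4 (a log2 signal of 6.2 in differentiated and 2.65 in aggregated cells), Stmn3 (a log2 difference of 3.30) and Stmn2 (3.19) were all higher, as was the growth cone gene Gap43 (2.16 in differentiated and -1.19 in aggregated cells, 3.35). The adhesion gene L1cam differed by 3.28 on the log2 scale, Dpysl3, which links semaphorin signals to microtubules, by 3.01, the axonal motor Kif5a by 2.88 and the migration gene Dcx by 2.6. The pan-neuronal tubulin Tubb3, already at 4.29 in aggregates, had a log2 signal of 5.87 after replating (a log2 difference of 1.57). At the low end, Tubb4a (a log2 difference of -0.27), Tubb2b (0.21) and the neurofilament genes Nefm (0.75) and Nefl (1.02) differed little beside the rest.

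At the synapse, the calcium sensor gene Syt4 was detected in differentiated cells only (a log2 signal of -0.49), at least 43.8-fold higher. Sv2a, a vesicle membrane protein, had a log2 signal of -0.22 in differentiated and -4.47 in aggregated cells, 19-fold higher. The granins, which pack hormones and peptides into dense-core vesicles, were higher: Scg2 had a log2 difference of 4.07, Chga 3.59, Scg3 3.40, Chgb 2.37 and Scg5 1.85. Proteins of the active zone and the release machinery followed, with Bsn at a log2 difference of 3.35, Pclo at 2.50, Cplx1 at 3.24, Syp at 2.90, Snap25 at 2.72 and Syt1 at 2.44. On the receiving side, Dlg2 had a log2 difference of 3.26 and Dlg4, which encodes PSD-95, 1.99. Syn1 (a log2 signal of 6.27 in undifferentiated, 5.29 in aggregated and 4.74 in differentiated cells) was highest before aggregation and had the most negative difference of the list.

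**Figure D3:**
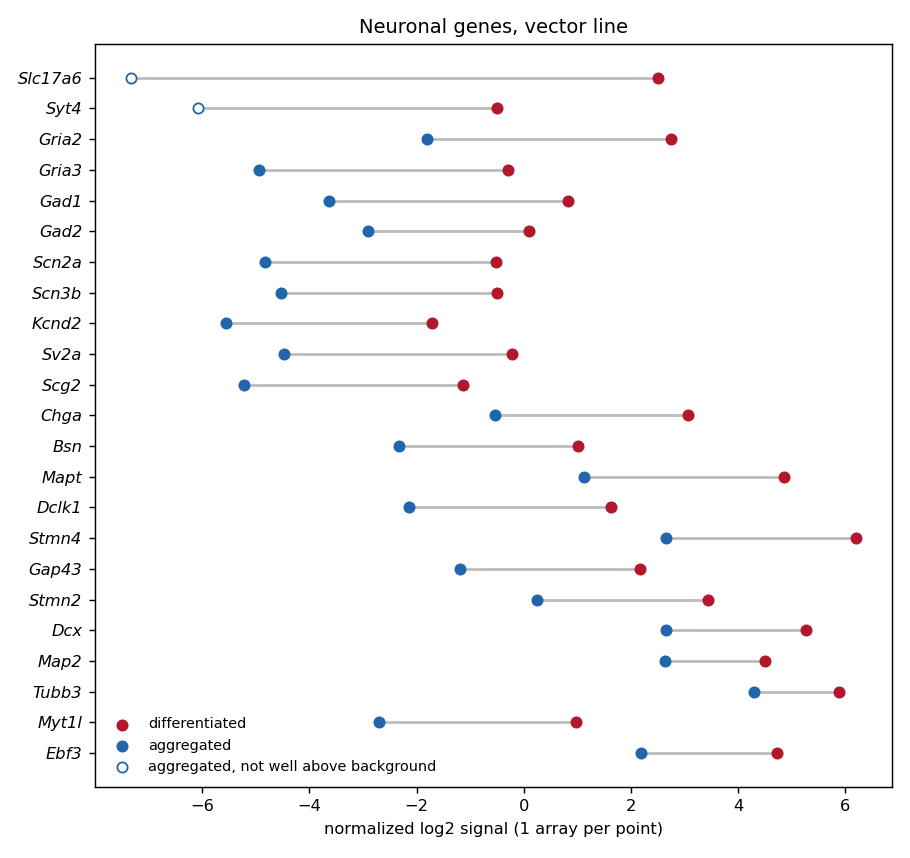
Points give the normalized log2 signal of 23 neuronal genes in differentiated (red) and aggregated (blue) vector cells, 1 array each, with open points where a gene was not well above background. The genes were picked with their values known, and members of the neuronal lists that were lower, such as Glra1, Neurog1 and Cacna2d2, are not drawn. Every gene drawn is therefore higher in differentiated cells, and Slc17a6, at least 351-fold higher, spans the widest distance.

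Most genes of fast transmitters past 2-fold were higher, for both GABA and glutamate. Slc17a6, the vesicular glutamate transporter VGLUT2, had a log2 signal of 2.51 in differentiated cells and was not well above background in aggregated cells (-7.32), at least 351-fold higher and the largest bound of all genes. The AMPA receptor subunits Gria2 (a log2 signal of 2.75 in differentiated and -1.81 in aggregated cells, 23.6-fold higher), Gria3 (a log2 difference of 4.63), Gria1 (3.42) and Gria4 (1.90) were all higher. Of the kainate receptor genes, Grik1 was detected after replating only, at least 17.9-fold higher. The NMDA receptor subunits were less than 2-fold apart: Grin1 had a log2 difference of -0.57, Grin2b 0.86 and Grin2d -0.95. For GABA, the synthetic enzymes Gad1 (a log2 signal of 0.82 in differentiated and -3.64 in aggregated cells, 22-fold higher) and Gad2 (a log2 difference of 2.99) were both higher. The glycine transporter Slc6a5, of inhibitory neurons in hindbrain and spinal cord, differed by 2.91 on the log2 scale, and the GABA-A subunit Gabra2 was detected after replating only, at least 20.5-fold higher. Slc32a1, which loads GABA and glycine into vesicles, had a log2 difference of 1.05. Glra1, a glycine receptor subunit, was lower (a log2 signal of -4.60 in differentiated and -2.54 in aggregated cells, a log2 difference of -2.06).

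Of 27 GABA and glycine genes listed, 23 were kept, 15 higher by 2-fold or more and 1 lower by as much. The median was 1.93 with bounds, 2.26 with dim signals as measured, 1.07 over the members on both arrays and 1.04 with normexp correction. Of 27 glutamate genes, 20 were kept, 12 higher by 2-fold or more and 0 lower by as much. Their median was 1.29 with bounds, 1.91 with dim signals as measured, 1.2 over members on both arrays and 0.81 with normexp correction. Acetylcholine, monoamine and peptide genes were mixed. Of 43 listed, 27 were kept, 9 higher by 2-fold or more and 6 lower by as much, and the median of -0.12 changed sign with the filter. The peptide gene Adcyap1, which encodes PACAP, had a log2 signal of -0.36 in differentiated and -5.13 in aggregated cells, 27.3-fold higher. Neuropeptide Y (Npy) was detected in differentiated and not in aggregated cells, at least 18.0-fold higher. Its log2 signal of -1.77 in differentiated cells lay below the 0.40 in undifferentiated cells. Neurotensin (Nts) had a log2 difference of 3.80. Other peptide genes ran the other way: somatostatin (Sst) had a log2 signal of -1.93 in differentiated and 0.70 in aggregated cells (a log2 difference of -2.62), Calca -2.51 (-0.61 on the other probe) and Cck -1.27. Among the acetylcholine receptor genes, Chrnb2 had a log2 difference of 3.15 and Chrnb4 was detected in aggregates only, at least 6.75-fold lower. The dopamine-synthesis gene Th and the choline acetyltransferase gene Chat were both detected in aggregates only, with log2 signals of -5.02 and -5.64 there and bounds under 2-fold.

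Voltage-gated channels make neurons excitable, and of 50 genes listed 37 were kept, 22 higher by 2-fold or more and 1 lower by as much. Their median was 1.5 with bounds, 1.61 with dim signals as measured and 0.77 with normexp correction. The sodium channel genes Scn2a (a log2 signal of -0.51 in differentiated and -4.83 in aggregated cells, a log2 difference of 4.32) and Scn3b (-0.49 in differentiated and -4.53 in aggregated cells, 16.4-fold higher) stood at the top. The A-type potassium channel gene Kcnd2 had a log2 difference of 3.84, the fast-spiking channel gene Kcnc1 3.10 and the calcium channel genes Cacna2d1 and Cacna1d 3.63 and 3.09. Cacna2d2 was the single member at least 2-fold lower (a log2 signal of 1.19 in differentiated and 2.63 in aggregated cells, a log2 difference of -1.43).

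Axon guidance genes past 2-fold were mostly higher. Of 46 listed, 43 were kept, 21 higher by 2-fold or more and 3 lower by as much, with a median of 0.84. The semaphorin receptors Plxna4 (a log2 difference of 5.01, and 0.95 on the other probe) and Plxna2 (a log2 signal of 4.39 in differentiated and 0.78 in aggregated cells, 12.2-fold higher) and the Slit receptor Robo2 (a difference of 4.56, 2.74 on the other probe) were the largest, followed by the semaphorins Sema3e (3.33), Sema3a (3.11) and Sema6a (2.79). Dcc, the netrin receptor of commissural axons, had a log2 difference of 1.91. Unc5a, a netrin receptor of the repulsive kind, had a log2 signal of -0.42 in differentiated and 3.14 in aggregated cells, 11.8-fold lower. Sema3c was detected in aggregates only, with a log2 signal of -3.80 there. The Slit genes Slit1 (a log2 difference of -1.22), Slit2 (-0.90) and Slit3 (-0.94), the ligands of Robo receptors, all had negative differences, and Slit1 alone passed 2-fold.

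Transcription factors of neurogenesis ran both ways. The Neurog and Neurod genes, which drive cells toward a neuronal fate, had log2 differences of -1.89 (Neurog1), -0.23 (Neurog2), -1.17 (Neurog3), -0.20 (Neurod1) and 0.78 (Neurod2), and Neurod4 was detected after replating only, at least 6.57-fold higher. Myt1l, which holds neuronal identity, had a log2 signal of 0.97 in differentiated and -2.70 in aggregated cells, 12.8-fold higher. Myt1 differed by 2.72 on the log2 scale, the repressor Scrt1 by 2.42 (0.46 on 1 of 3 probes), and the Ebf genes by 2.83 (Ebf1), 2.35 (Ebf2) and 2.55 (Ebf3). Tlx3, which selects the glutamate fate in the dorsal spinal cord, had a log2 difference of 2.64, and its relative Tlx1 had a log2 signal of 0.53 in differentiated and -5.44 in aggregated cells, 62.5-fold higher and among the 12 largest of all genes. Dlx1, a factor of forebrain GABA neurons, and Pou4f2 were detected after replating only, at least 4.46-fold and 7.46-fold higher. Lhx5, of early interneurons, was lower (a log2 signal of 0.65 in differentiated and 2.06 in aggregated cells, a log2 difference of -1.41). Over the list, 38 of 45 genes were kept, 16 higher by 2-fold or more and 5 lower by as much, with a median of 0.55.

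Among neural progenitor genes past 2-fold, more were lower than higher. Of 43 listed, 39 were kept, 2 higher by 2-fold or more and 15 lower by as much, with a median of -0.44. Sox2, the factor of neural stem cells, had a log2 signal of 1.88 in differentiated and 3.37 in aggregated cells, 2.8-fold lower. Pax6 (a log2 difference of -1.42), Sox1 (-1.17), Nes (-1.04), Gli3 (-1.57) and Rfx4 (-1.52) were lower to a like degree. The dorsal factors were among the largest: Pax3 had a log2 signal of -0.27 in differentiated and 1.44 in aggregated cells (a log2 difference of -1.71), Pax7 -4.75 in differentiated and -2.09 in aggregated cells (-2.67), and Irx3 was detected in aggregates only, at least 12.7-fold lower. Olig1 was also detected in aggregates only, at least 5.61-fold lower. Among radial glia genes the differences had both signs, with Fabp7 at a log2 difference of 0.85, Vim at -0.78, Slc1a3 at -0.73 and the receptor phosphatase Ptprz1 at 2.28 (4.86-fold higher).

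Within the Notch pathway, by which progenitors hold their neighbours back from becoming neurons, 28 of 31 genes were kept, 4 higher by 2-fold or more and 6 lower by as much, with a median of -0.34. These counts are 14.3% and 21.4% of the kept members, beside 11.9% and 11.5% of all genes. The targets Hes1 (a log2 signal of -3.67 in differentiated and -0.75 in aggregated cells, 7.54-fold lower) and Hey2 (-4.93 in differentiated and -2.66 in aggregated cells, 4.82-fold lower) were lower, while Hes5, also a target, had a signal of 5.82 in differentiated and 5.94 in aggregated cells (a log2 difference of -0.12). The receptor Notch3 differed by -1.34 on the log2 scale, Notch1 by -0.44 and Notch2 by -0.34. The neuronal ligand Dner had a log2 difference of 2.68, the inhibitory ligand Dll3 1.35 and the ligand Dll1 0.74. The deltex genes had opposite signs, with a log2 difference of 2.56 for Dtx1, while Dtx4 had a log2 signal of 3.72 in differentiated and 5.72 in aggregated cells.

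Genes of the Wnt, BMP, Shh and FGF pathways ran both ways. Wnt1, made by the roof plate, had a log2 signal of -4.20 in differentiated and 0.76 in aggregated cells, 31.1-fold lower. Bmp7 had a log2 signal of -0.40 in differentiated and 3.87 in aggregated cells (19.3-fold lower), Gdf10, a relative of the BMPs, a log2 difference of -4.70, and Wnt4 -3.46. Sp5, a target of Wnt, had a log2 signal of -2.40 in differentiated and 3.24 in aggregated cells (50.1-fold lower), Lgr5 a log2 difference of -2.62, Nkd1 -2.21 and Axin2 -1.05. The BMP targets Msx1 (a log2 signal of -1.21 in differentiated and 4.24 in aggregated cells, 43.8-fold lower), Msx2 (a log2 difference of -4.48), Id3 (-2.20) and Smad6 (-1.85) were lower. Etv4, a transcription factor that FGF induces, had a log2 signal of 0.73 in differentiated and -3.39 in aggregated cells, 17.4-fold higher, beside 1.80 in undifferentiated cells. Its relative Etv5 (bound of 2.6 on the log2 scale) and the feedback inhibitor Spry4 (bound of 3.76) were detected after replating only, and Spry2 had a log2 difference of 1.49. Of other known FGF targets, Dusp6 had a log2 difference of -0.22 and Spry1 -0.37, and the receptor Fgfr2 had -1.72. Fgf9 (a log2 difference of 1.95), Fgf15 (2.26) and Wnt7a (3.56) were higher among the ligands. Over the whole list of Wnt, BMP, Shh and FGF genes 61 of 70 were kept, 15 higher by 2-fold or more and 22 lower by as much, with a median of -0.65. Shh itself was not kept, and its receptor and target Ptch1 had a log2 signal of -5.89 in differentiated and -4.28 in aggregated cells (a log2 difference of -1.61).

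Neural crest and placode genes counted 3 members higher by 2-fold or more and 9 lower by as much among 23 kept of 29, with a median of -0.65 (-0.63 with bounds, -0.28 with normexp correction and -0.36 with the mean over probes). Tfap2c had a log2 signal of -2.85 in differentiated and 0.74 in aggregated cells (12-fold lower), and the placode gene Eya2 had a log2 difference of -3.03. Neurotrophin receptors differed among themselves: Ntrk2 had a log2 difference of -2.44, while Ntrk3 had a log2 signal of 0.87 in differentiated and -1.89 in aggregated cells (a difference of 2.76) and Ngfr, the low-affinity receptor p75, 3.71 in differentiated and 0.28 in aggregated cells (a difference of 3.43, 1.77 on the other probe).

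Cell cycle and DNA replication genes were lower, most by less than 4-fold. Of 62 genes listed, 60 were kept, 42 lower by 2-fold or more and 1 higher by as much, and the median was -1.23. The largest differences were in D-type cyclins, which start the cycle: Ccnd2 had a log2 signal of 2.55 in differentiated and 5.06 in aggregated cells (5.67-fold lower) and Ccnd3 1.56 in differentiated and 3.56 in aggregated cells (4.01-fold lower). Genes of replication origin licensing followed, with Cdt1 at a log2 difference of -1.95, Gmnn at -1.65, Mcm3 at -1.73 and Mcm5 at -1.52, and genes of mitosis lay close by, with Top2a at -1.59, Ccnb1 at -1.54 and Aurka at -1.43. The proliferation marker Mki67 had a log2 signal of 4.41 in differentiated and 5.27 in aggregated cells (a log2 difference of -0.85), so its signal was lower but stayed far above background. Inhibitors of the cycle differed by -0.08 on the log2 scale (Cdkn1a), -0.38 (Cdkn1b) and 0.18 (Cdkn1c), and Cdkn2b, the single higher member, by 1.73. Ribosomal protein genes, abundant in growing cells, had negative differences in 38 of 38 members kept, from -1.5 (Rpsa) to -0.07 (Rplp0), with 14 at least 2-fold lower. Their median of -0.75 was -0.23 with quantile normalization and -0.92 with median scaling. Reference genes had a median of -0.36 (-0.64 with normexp correction), with Actb at a log2 difference of -0.03, Tbp at -0.19 and Hprt at -1.47.

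Genes of the extracellular matrix were higher for fibrillar collagens and their companions. Postn, the periostin of connective tissue, had a log2 signal of 0.12 in differentiated and -5.46 in aggregated cells, 47.9-fold higher and among the 12 largest of all genes. The collagens of skin and tendon had a log2 signal of 0.17 in differentiated and -2.62 in aggregated cells (Col1a1, 6.91-fold higher), 3.59 in differentiated and 1.34 in aggregated cells (Col1a2, 4.75-fold higher) and 3.72 in differentiated and 1.1 in aggregated cells (Col3a1, 6.14-fold higher). Collagen VI was higher through Col6a1 (a log2 difference of 3.57) and Col6a2 (2.25), and the proteoglycans Lum and Dcn by 1.79 and 1.60. Tenascin C (Tnc) was detected after replating only, at least 6.53-fold higher. Basement membrane genes differed less, with Col4a1 at a log2 difference of 0.55, Col4a2 at 0.04, Lamb1 at 1.21, Nid1 at 1.48 and Lama1 at -1.47. Over the list, 49 of 59 genes were kept, 19 higher by 2-fold or more and 6 lower by as much, with a median of 0.56. Of the receptors and surface proteins of fibroblasts and pericytes, 4 examples were higher, with Pdgfra at a log2 difference of 3.71, Pdgfrb at 1.49, Tgfbr2 at 2.06 and Thy1 at 1.59. Pdgfra is also among the oligodendrocyte lineage markers. Of smooth muscle genes, Acta2 had a log2 difference of -0.22, Tagln -0.35 and Tpm1 -0.67. The list of mesenchymal regulators, receptors and contractile genes, with 5 of 36 kept at least 2-fold higher and 4 lower, had a median near 0 (0.03) that changed sign with the scaling. These counts are 13.9% and 11.1%, beside 11.9% and 11.5% of all genes. The 4 lower members were Msx1 (a log2 difference of -5.45), Msx2 (-4.48), Meox1 (a bound of -3.93) and Foxc2 (a bound of -1.88). The mesenchyme markers summed above include Col1a1, Col1a2, Col3a1, Dcn, Lum, Postn, Pdgfrb and Thy1, so their sum is no separate measure of these genes.

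Adhesion genes, through which cells read contact with a surface, ran both ways. Of 40 genes for integrins, cadherins and YAP targets, 34 were kept, 6 higher by 2-fold or more and 8 lower by as much, with a median of -0.30 (-0.47 with scaling to the median). These counts are 17.6% and 23.5% of the kept members, beside 11.9% and 11.5% of all genes. The YAP targets Ccn2 (detected in aggregates only, at least 7.75-fold lower) and Ccn1 (a log2 signal of -0.63 in differentiated and 0.94 in aggregated cells, a log2 difference of -1.57) were lower, as were Ajuba (-2.57), the focal adhesion gene Vcl (-1.84) and Yap1 itself (-1.59). Ccn4, of the same list, had a log2 signal of -1.13 in differentiated and -4.05 in aggregated cells, 7.54-fold higher. Cdh13, a cadherin of neurons and vessels, had a log2 signal of 2.36 in differentiated and -2.63 in aggregated cells, 31.8-fold higher, and Itga3 had a log2 difference of 1.96, with -0.25 to 2.69 over its 3 probes.

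Pluripotency factors of the undifferentiated state had low signals in both differentiated and aggregated cells. Of 37 listed, 27 were kept, 5 higher by 2-fold or more and 7 lower by as much, with a median of -0.23 (-0.36 with quantile normalization and -0.39 with scaling to the median). These counts are 18.5% and 25.9% of the kept members, beside 11.9% and 11.5% of all genes. Pou5f1, which encodes Oct4, had a log2 signal of -0.64 in differentiated and -2.40 in aggregated cells, 3.39-fold higher, beside 6.37 in undifferentiated cells. Gdf3 had a log2 signal of -2.71 in differentiated and -4.97 in aggregated cells (a log2 difference of 2.26), and Cdh1, the epithelial cadherin, was detected after replating only, at least 4.68-fold higher. Esrrb (a log2 difference of -3.03), Lefty1 (-2.52) and Lin28b (-1.1) were lower. Lin28a, which keeps the let-7 miRNAs from maturing, had a log2 signal of 4.58 in undifferentiated, -2.32 in aggregated and -2.06 in differentiated cells. Dnmt3b, a DNA methyltransferase, had a log2 signal of 5.26 in undifferentiated, -1.1 in aggregated and -1.43 in differentiated cells.

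Genes of several other kinds stood at the top of the higher side. Mab21l2, known from eye and neural tube development, had a log2 signal of 1.4 in differentiated and -5.63 in aggregated cells, 131-fold higher and the largest measured difference upward. Myh7, the slow myosin heavy chain of heart and muscle, had a log2 signal of 1.79 in differentiated and -4.34 in aggregated cells (70.0-fold higher), and Myh8, a myosin of fetal muscle, was detected after replating only, at least 21.6-fold higher. Of the other muscle genes Myh6 was also detected after replating only (at least 6.34-fold higher), while Nkx2-5 had a log2 difference of -0.84, Actc1 0.76 and Myl7 was detected in aggregates only. Of the 4 cardiac muscle markers, 4 were above background in differentiated and 2 in aggregated cells. Those above background summed to 4.46 in differentiated and 1.59 in aggregated cells, and Myh7 made up most of the differentiated sum. Tmem163 (70.0-fold higher), Tmem130 (65.6-fold), the neural adhesion gene Chl1 (64.4-fold), Fgf12, a partner of sodium channels (54.2-fold), Fgd5 (34.9-fold), the synapse organizer Cbln1 (33.5-fold) and Sema4a (32.3-fold) completed this group. Oprl1, the nociceptin receptor, had a log2 difference of 5.02 on 1 probe and -0.41 on the other. Detected after replating only were also Pcp4 (at least 36.3-fold higher), the neuronal GTPase Rit2 (33.3-fold), Ralyl (27.0-fold) and Spock3 (19.4-fold). On the lower side stood Fndc5 (38.0-fold lower), the circadian repressor Ciart (37.2-fold) and Smtnl2 (34.0-fold). Detected in aggregates only were Fcgrt, the neonatal Fc receptor (at least 79.2-fold lower), the protocadherin Pcdh20 (32.6-fold), the somite factor Meox1 (15.3-fold), Clec1b (12.5-fold), ceruloplasmin, Cp (9.18-fold), Fbxl13 (9.07-fold) and Hmx3 (7.79-fold).

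The AICD line went through the same step on 2 other arrays of the same slide, so the vector differences can be set beside differences that share the slide but no array with them. Across the 11795 genes on all 4 arrays, which are not independent replicates, the steps of the vector and AICD lines correlated with Pearson's r of 0.809, and their SD over genes was 1.01 in the vector and 0.69 in the AICD line. The AICD step was taken for the genes kept in the vector line, of which 12541 were above background on 1 or both AICD arrays. Of these, 909 (7.25%) were higher by 2-fold or more and 596 (4.75%) lower by as much. Genes detected in AICD cells only were left out. The AICD counts, shares and list medians therefore cover only genes detected in aggregated or differentiated vector cells. At least 2-fold higher in both lines were 708 genes, which is 45.6% of the vector genes and 77.9% of the AICD genes, and 421 were at least 2-fold lower in both, 28.1% of the vector and 70.6% of the AICD genes. The first count was 371 with normexp correction, and the count of genes lower in both was 664 with scaling to the median. Of the 1290 genes at least 2-fold higher in the vector line and on all 4 arrays, 1225 had the larger size in the vector line, and of the 1337 lower genes 1253 did. These genes were selected in the vector line, which favours larger sizes there.

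**Figure D4:**
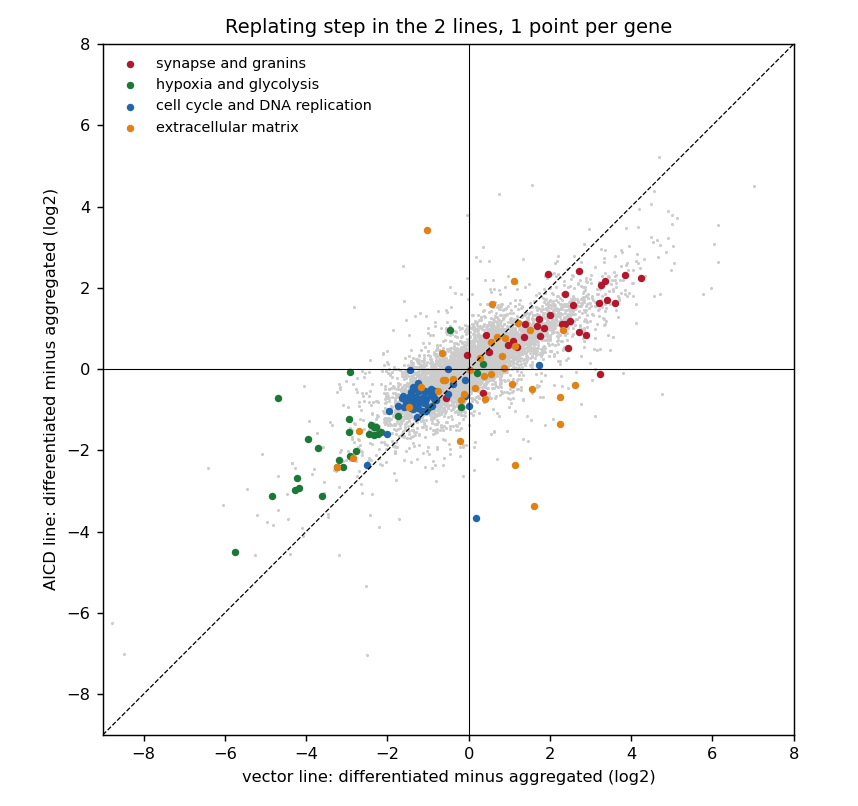
Each point is a gene on all 4 arrays, with the difference between differentiated and aggregated cells of the vector line on the horizontal and of the AICD line on the vertical axis (log2), and 4 lists in colour. The synapse list has a median of 2.29 in the vector and 1.11 in the AICD line, the hypoxia list -2.93 in the vector and -1.61 in the AICD line, and matrix genes such as Dcn lie above 0 on the horizontal and below 0 on the vertical axis.

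For the neuronal, hypoxia and cell cycle lists the larger median in size was that of the vector line. The median log2 difference was 2.29 in vector and 1.11 in AICD cells for the synapse, 2.16 in vector and 1.1 in AICD cells for the neuronal cytoskeleton, -2.93 in vector and -1.61 in AICD cells for hypoxia and glycolysis, and -1.23 in vector and -0.70 in AICD cells for the cell cycle. It was closer for Hox genes (-1.05 in vector and -1.19 in AICD cells), ribosomal proteins (-0.75 in vector and -0.79 in AICD cells) and the retinoic acid list (-0.36 in vector and -0.46 in AICD cells, -0.56 in AICD cells with bounds). The retinoic acid genes at the top had the same sign in both lines, with a log2 difference of -8.77 in vector and -6.25 in AICD cells for Cyp26b1, -8.48 in vector and -7.00 in AICD cells for Dhrs3 and -4.40 in vector and -4.55 in AICD cells for Rarb. Slc2a1, Slc2a3 and Slc16a3 were further apart between the lines: Slc2a1 had a log2 difference of -2.93 in vector and -0.07 in AICD cells, Slc2a3 -4.69 in vector and -0.71 in AICD cells, and Slc16a3 -6.41 in vector and -2.44 in AICD cells. Slc17a6 was at least 351-fold higher in the vector line and differed by 3.12 in the AICD line, where it was above background in aggregates.

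The matrix list had medians of opposite sign, 0.56 in vector and -0.26 in AICD cells (-0.27 with bounds). Col1a1 had a log2 difference of 2.79 in vector cells and was detected in aggregates only in AICD cells, at least 1.52-fold lower. Col1a2 had a log2 difference of 2.25 in vector and -0.68 in AICD cells, Col3a1 2.62 in vector and -0.40 in AICD cells, and Dcn 1.60 in vector and -3.36 in AICD cells. Thbs1 went against this, with a log2 difference of -1.02 in vector and 3.43 in AICD cells. Among the genes with the widest gap between the steps, Adcyap1 (a log2 difference of 4.77 in vector and -0.61 in AICD cells), Nts (3.80 in vector and -0.09 in AICD cells), Tlx1 (5.97 in vector and 2.00 in AICD cells), Fgf12 (5.76 in vector and 1.84 in AICD cells), Vcam1 (3.10 in vector and -1.15 in AICD cells) and Cdkn1c (0.18 in vector and -3.66 in AICD cells) had the more positive step in vector cells. Nkx6-2 (a log2 difference of 0.74 in vector and 4.31 in AICD cells), Nkx6-1 (-0.05 in vector and 3.78 in AICD cells), Emx1 (-2.83 in vector and 1.52 in AICD cells), Foxd4 (-1.61 in vector and 2.53 in AICD cells) and the carbonic anhydrase gene Car14 (-4.04 in vector and -0.41 in AICD cells) had the more negative one. At 1 array per line and state the difference between the steps was not tested.

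**Figure D5:**
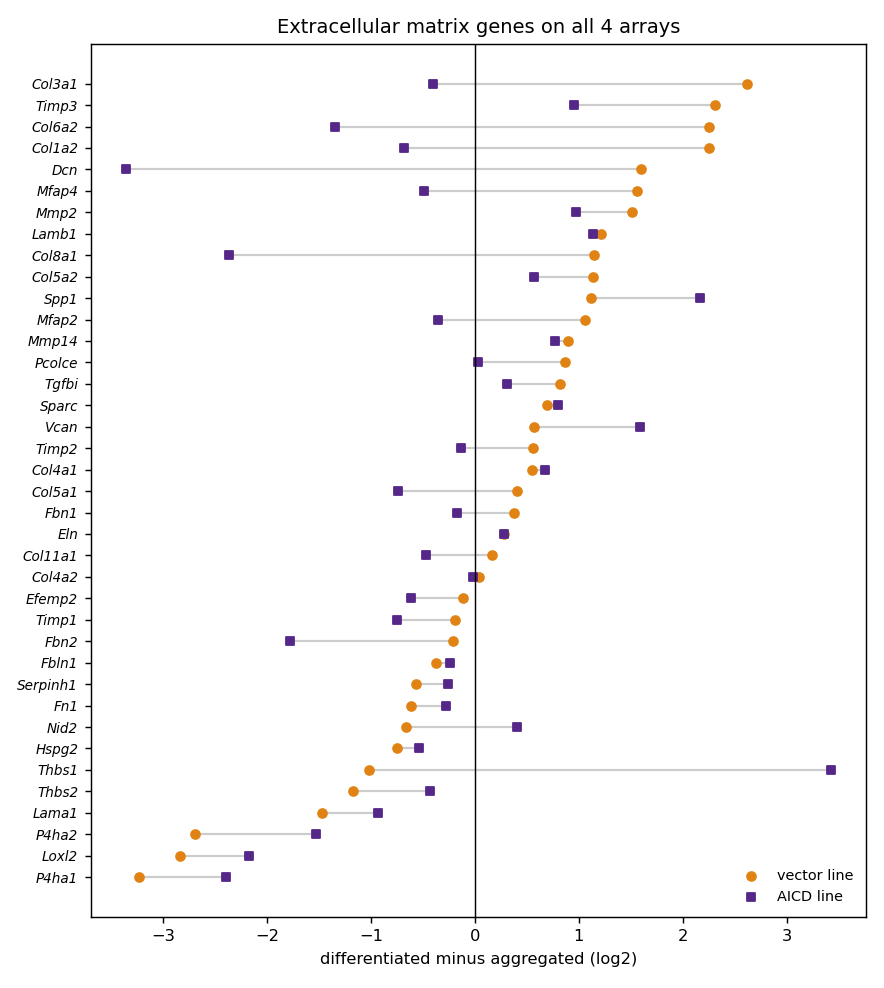
For each matrix gene on all 4 arrays, the circle gives the difference between differentiated and aggregated cells in the vector line and the square the same in the AICD line (log2, 1 array per line and state). Circles of Col3a1, Col1a2, Col6a2 and Dcn lie right of 0 and their squares left of it, whereas P4ha1, P4ha2 and Loxl2 lie left of 0 in both lines.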

How the data were processed

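RNA of 6 samples was measured on 1 array each. Per the file headers, the deposited intensity of each spot is the processed signal of Agilent Feature Extraction, already background-corrected by the authors' scanner software, with flags for spots well above background (version 10.1.1.1 per the submitters' processing notes). The 43379 non-control spots of 45018 were used. Spots of a probe without an outlier flag were averaged on the linear scale. The log2 of that mean was then scaled to the 75th percentile of the array. The probe with the highest mean over 6 arrays stood for a gene. Symbols came from RefSeq accessions (24844 of 41174 probes, 17178 genes). The header names another mouse build than the GRCm38.p6 table, so positions are given for promoter windows only. The authors' deposited value table is a score, found by comparison to be a signed ratio to the probe's median with small sizes left blank, and served as an alternative.

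Genes flagged well above background on 1 or both vector arrays were kept. A bound sets the detected array against the higher of the faintest signal called above background and the dim probe's own value. Scripts used python 3.11.15, numpy 2.4.6, pandas 2.3.3, R 4.3.3, limma 3.58.1 (normexp) and the R package data.table (1.17.8) and were tested on simulated data. Normexp used the median spot signal, in place of the planned mean spot signal, which was not used here.

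The comparison, members and lists were chosen with earlier results of these data known. Named genes are the 12 largest measured differences and the 8 largest bounds in each direction, the 5 largest of each list (up to 12 for neuronal, progenitor, retinoic acid, Hox, pluripotency, cell cycle and matrix lists) and the 8 largest gaps between lines in each direction. Some genes that the rule names are not reported here. These genes fall outside that rule and were chosen after their values were seen: Acta2, Actb, Actc1, Adm, Aldoa, Aurka, Axin2, Blvrb, Cacna2d2, Car9, Cck, Ccn1, Cdkn1a, Cdkn1b, Chat, Chgb, Col4a1, Col4a2, Crabp1, Dcc, Dcx, Ddit4, Dlg4, Dll1, Dll3, Dnmt3b, Dusp6, Egln1, Egln3, Eno1, Etv5, Fabp7, Fgf15, Fgf9, Fgfr2, Gpi1, Grin1, Grin2b, Grin2d, Hes5, Hk1, Hk2, Hoxb2, Hoxb5, Hoxb6, Hoxb7, Hoxb8, Hoxb9, Id3, Lamb1, Lcorl, Ldha, Lgr5, Lhx5, Lin28a, Mki67, Myl7, Nefl, Nefm, Nes, Neurod1, Neurod2, Neurog2, Neurog3, Nid1, Nkd1, Nkx2-5, Notch1, Notch2, Notch3, Ntrk2, Pclo, Pfkl, Pfkm, Pfkp, Pgam1, Pkm, Ptch1, Rara, Rplp0, Rxra, Rxrb, Scg5, Sema3a, Sema3c, Sema6a, Slc1a3, Slc2a1, Slc32a1, Slit1, Slit2, Slit3, Smad6, Sox1, Spry1, Spry2, Spry4, Syn1, Syt1, Tagln, Tbp, Th, Tnfsf13b, Tpi1, Tpm1, Tubb2b, Tubb3, Tubb4a, Vcl, Vegfa, Vim, Wnt4, Wnt7a and Yap1. Alternatives were normexp correction, quantile normalization, scaling to the median, the filter, the mean over probes and the authors' values.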

Additional observations from a re-analysis of the deposited data

Results flagged for a closer look

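The vector and AICD lines had opposite signs for some genes at least 2-fold apart in both, and each line has 1 array per state, so these differences were not tested. Of the 1553 genes at least 2-fold higher in vector cells, 20 were at least 2-fold lower in AICD cells. Of the 1497 at least 2-fold lower in vector cells, 10 were at least 2-fold higher in AICD cells. Only some of them, taken from the named genes, are given here. Higher after replating in vector cells and lower in AICD cells were Col6a1 (3.57 in vector cells on the log2 scale, and detected in aggregates only in AICD cells, with a bound of -2.01), Col6a2 (2.25 in vector and -1.35 in AICD cells), Dcn (1.60 in vector and -3.36 in AICD cells) and the adhesion receptor Vcam1 (3.10 in vector and -1.15 in AICD cells). Myh8 was detected after replating only in vector cells, with a bound of 4.44, and had -3.36 in AICD cells. Lower after replating in vector cells and higher in AICD cells were Emx1 (-2.83 in vector and 1.52 in AICD cells), Foxd4 (-1.61 in vector and 2.53 in AICD cells), Gata3 (-1.19 in vector and 1.37 in AICD cells), Sall4 (-1.04 in vector and 1.30 in AICD cells) and Thbs1 (-1.02 in vector and 3.43 in AICD cells).

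The medians of 3 lists, with members at their bounds, also had opposite signs. They were -0.23 in vector and 0.22 in AICD cells for pluripotency, 0.56 in vector and -0.27 in AICD cells for the extracellular matrix, and -0.44 in vector and 0.27 in AICD cells for endothelium and blood. The vector median of the last list was -0.16 with normexp correction and -0.15 with no filter, and that of pluripotency -0.39 with scaling to the median. These differences were not tested either.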

How the results depend on the processing

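No paired analysis was possible because each group has 1 array and the labels give no replicate numbers, and leaving out an array leaves no comparison. Of the 279 named genes at least 2-fold apart, all with a value kept their sign under every alternative run, and 241 stayed at least 2-fold apart with normexp correction, 275 with quantile normalization, 274 with scaling to the median and 272 with the mean over probes. Only 234 had a value with the filter on both vector arrays and 73 in the authors' values. Most were named for their size on these same arrays, so a kept sign is no independent support. The genes chosen after their values were seen are outside this count. Scaling to the median gave a median of all genes of -0.26 (-0.09 with the 75th percentile) and gave 1311 genes at least 2-fold higher and 2019 lower (39.4% higher), against 1553 and 1497 (50.9%). With normexp correction 371 genes were at least 2-fold higher in both lines, and the list medians were 1.73 for the synapse, -0.59 for Hox, -1.12 for the cell cycle and 0.41 for the matrix. With quantile normalization they were 2.44 for the cytoskeleton, 2.51 for the synapse, -1.10 for the cell cycle and -2.57 for hypoxia. Scaling to the median gave 664 genes lower in both lines and medians of 1.99 (cytoskeleton), 2.12 (synapse), -0.53 (retinoic acid), -1.20 (Hox), -1.40 (cell cycle), 0.39 (matrix) and -3.09 (hypoxia). With no filter the synapse median was 2.05 and the Hox median -0.40, and with the mean over probes the cytoskeleton had 2.05 and the synapse 2.08. The authors' values, which list 495 of the genes, gave 172 higher and 112 lower, 24 and 21 of them in both lines, and medians of 2.76 (cytoskeleton), 4.04 (synapse), 0.96 (matrix) and -3.63 (hypoxia). That table leaves small sizes blank; otherwise the cause of these shifts was not tested. The median changed sign under at least 1 alternative for the lists of mesenchymal regulators, interferon, mesoderm and muscle, acetylcholine and peptides, macrophages, p53 targets and glia, so no direction is given for them. Signal near background limits genes detected on 1 array to bounds.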
